A study of Mus musculus with 27 samples.

Results

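The 4 Id genes (Id1, Id2, Id3 and Id4) and 5 genes of the bone morphogenetic protein (BMP) pathway (Bmp4, Bmp7, Smad1, Smad6 and Bambi) were followed through mammary tumour cell lines. They were taken by gene name, with earlier results of these data known, as 9 of the 24454 genes in the expression table, and all 9 passed the filter on low values. Cell lines had been grown from tumours of the thoracic mammary gland of 12-week-old female MMTV-PyMT mice on the FVB/N background. These mice express the polyoma virus middle T oncogene in the mammary epithelium from a mouse mammary tumour virus promoter. All lines carried a mutant form of Bcl9 and Bcl9L, coactivators that connect β-catenin to Pygopus. In ΔHD1 lines the mutant lacked the domain that binds Pygopus, and in ΔHD2 lines the domain that binds β-catenin. The second allele was floxed and functional in ΔHD1/fl and ΔHD2/fl lines. In the recombined ΔHD1/- and ΔHD2/- lines it had been removed by an adenovirus that carries Cre and GFP, so that only the mutant form remained. No group was free of a mutant allele, and the untreated fl lines are therefore not wild-type controls.

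RNA-sequencing covered 27 libraries from 9 lines, each without cytokine, with Wnt3a (100 ng/ml, 3 days) or with TGFβ (2 ng/ml, 4 days). There were 2 lines of each genotype except ΔHD2/-, which had 3. The untreated cells are labelled 4 days, so they match the TGFβ cells in time and not the Wnt3a cells. Replicates are lines from different mice per the labels, and whether a recombined line and an fl line of the same number come from 1 tumour is not stated there. The paper describes recombined lines as made from floxed tumour cells, taken from 2 different tumours. Recombined and fl lines may thus be related, and tests between them treat them as separate. Libraries held 21864011 to 33692360 reads in genes.

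BMP ligands such as Bmp4 and Bmp7 bind paired serine/threonine kinase receptors that phosphorylate Smad1, Smad5 and Smad9, which enter the nucleus with Smad4. Id genes are classic direct targets of these Smads. Their products are helix-loop-helix proteins without a DNA-binding region that pair with E proteins and keep them off DNA. Smad6 and Smad7 are inhibitory Smads that close a feedback loop, and Bambi is a pseudoreceptor without a kinase that dampens signalling. TGFβ uses related receptors and mainly Smad2 and Smad3.

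In the GRCm38 annotation, Id1 (Entrez 15901) lies on the plus strand at chr2:152736251-152737410. Id2 (15902) lies on the minus strand at chr12:25093799-25097140, Id3 (15903) on the plus strand at chr4:136143497-136145755, and Id4 (15904) on the plus strand at chr13:48261228-48266026. Bmp4 (12159) is at chr14:46383520-46390669 and Bmp7 (12162) at chr2:172868012-172940321, both on the minus strand. Smad1 (17125) is at chr8:79338395-79399518, and Smad6 (17130) at chr9:63953076-64022059, again on the minus strand. Exons of Id4 overlap those of A330033J07Rik and Gm49291 on the opposite strand, and Bmp4 exons overlap those of Gm15217. Libraries were stranded, but whether counting used strand is not given in the sources used here, so values of Id4 and Bmp4 could include antisense reads.

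RefSeq promoter sequences (GRCm38.p6) were matched for 6 of the 9 genes: Id2, Id3, Id4, Bmp4, Smad1 and Smad6. The 250 bases before the start were searched on both strands for GGCGCC (the core of a GC-rich BMP-responsive element), CAGAC (a Smad-binding element), CTTTGA (a TCF/LEF core), CANNTG (an E-box) and CCAAT. Stretches that hold a Smad-type motif in an Id gene follow here. Those of Id2 and Id4 are the part of the window that lies outside annotated exons, and those of Id3 are 25 bases around each site, since its window lies within an exon of another transcript. The RefSeq start of Id2 is that of its shorter transcripts, so the Id2 stretch lies in an intron of the longest annotated transcript. Capitals mark GGCGCC in Id2 and Id4, and CAGAC or its reverse complement GTCTG in Id3.
Id2, minus strand, chr12:25096254-25096342: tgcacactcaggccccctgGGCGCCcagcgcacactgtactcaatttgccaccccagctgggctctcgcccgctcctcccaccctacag
Id4, plus strand, chr13:48260866-48261115: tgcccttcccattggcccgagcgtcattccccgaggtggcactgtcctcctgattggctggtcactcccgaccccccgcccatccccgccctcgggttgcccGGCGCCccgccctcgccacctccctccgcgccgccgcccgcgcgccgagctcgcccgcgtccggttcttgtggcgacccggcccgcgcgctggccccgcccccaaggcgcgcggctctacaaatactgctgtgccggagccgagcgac
Id3, plus strand, chr4:136143645-136143669: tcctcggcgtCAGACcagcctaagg
Id3, plus strand, chr4:136143744-136143768: acccttggcgGTCTGttttgaataa

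GGCGCC began 231 bases before the RefSeq start of Id2 and 148 bases before that of Id4, and 9.59% of 32851 promoters held it. CAGAC was found in the Id3 window only, at -167 and -68, and 42.19% of all promoters held it. E-boxes (66.22% of promoters) stood at 1 place in Id2 and 3 in Bmp4. CCAAT (33.85% of promoters) stood at 3 places in Id2, 2 in Id4 and 1 in Smad1. CTTTGA (13.83% of promoters) was in none of the 6 windows. These matches are letters in a window, and binding was not measured.

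Before the results, 2 features of the libraries must be stated. The lines are labelled as epithelial tumour cells, but ΔHD1/fl line 2 and ΔHD1/- line 2 held almost no Cdh1 (E-cadherin), at 0.522 and 0.237 CPM (counts per 1000000 reads in genes) untreated, where the other 7 lines held 606 to 1145 CPM. Epcam was at 2 and 0 reads in the same 2 untreated libraries, and Vim (vimentin) at 4188 and 3678 CPM against 2.48 to 761 CPM in the others. Krt18 (0.373 and 2.23 CPM against 163 to 1506 CPM) and Krt14 (356 and 223 CPM against 1000.2 to 8746 CPM) were lower in both as well, and the summed mesenchymal markers were higher (6026 and 7383 CPM against 3.42 to 779 CPM). Of 2 further markers that did not separate both lines alike, Krt8 was at 1089 CPM in ΔHD1/- line 2 and 0.336 CPM in ΔHD1/fl line 2, and Trp63, a basal marker, was at 75.8 and 180 CPM. Calls in the mean responses are therefore also given without both lines, and other results include both unless stated. ΔHD2/- lines 2 and 3 had similar levels of all 9 genes in each treatment, so they may not be separate replicates, and a fit that averages them is given where it changes a count. The treatments took effect in all 9 lines. Axin2, a Wnt feedback gene, rose by 4.22 ± 0.19 with Wnt3a (log2 fold change ± SE, adjusted p = 7.3e-10), and Fn1 (fibronectin), a TGFβ target, rose by 1.90 ± 0.32 with TGFβ (adjusted p = 0.000773). Bcl9 and Bcl9l themselves were read at 34.0 to 67.8 and 138 to 323 CPM in the untreated lines, and a deletion of one domain or a mutant allele is not visible in a count per gene.

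A gene was called at an adjusted p of at most 0.05 and a log2 fold change of at least 1 in either direction, with limma on log2(CPM + 1). The main test used the spread between lines, and a test with cell line as a block compared each line with itself. Fold changes were computed from log2(CPM + 1) unless another scale is named, and for genes with low levels they are smaller than the true ratio. The whole table shifted as well. With TGFβ the median over all 13270 genes tested was -0.16, with 247 called higher and 472 lower, and with Wnt3a it was -0.06. Median-of-ratios scaling, which centres the libraries, moved the TGFβ median to -0.02 and the calls to 318 higher and 316 lower, and it turned the direction of none of the 9 genes described here, but Id1 was no longer called (adjusted p = 0.0651).

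Id1, Id2 and Id4 fell with TGFβ, and Id3 was lower in each line as well without passing the test. For the mean response over the 4 genotypes, 3 of the 9 genes were called lower where 3.56% of all genes tested were (5.42% in either direction). With cell line as a block, Bmp4 was called lower too, making 4 of 9 beside 5.9% of all genes (8.92% in either direction). None of the 9 was called higher in either test. All of Id1, Id2, Id3 and Id4 were lower with TGFβ in 9 of 9 lines, as were 15.7% of all genes tested. The median log2 fold change of the 9 genes was -0.92. Without both Cdh1-low lines, 3 of the 9 genes were called, again Id1, Id2 and Id4, beside 7.79% of all genes, and with ΔHD2/- lines 2 and 3 averaged 1 was, Id2, beside 4.3% of all genes. Id2 was called under all 18 alternative fits, whereas the calls of Id1 and Id4 were lost without single lines. That of Id1 was also lost in edgeR on recovered reads, with median-of-ratios scaling and without the filter, each of which called 2 of the 9 genes, Id2 and Id4 (beside 6.44%, 4.78% and 3.34% of all genes).

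**Figure D1:**
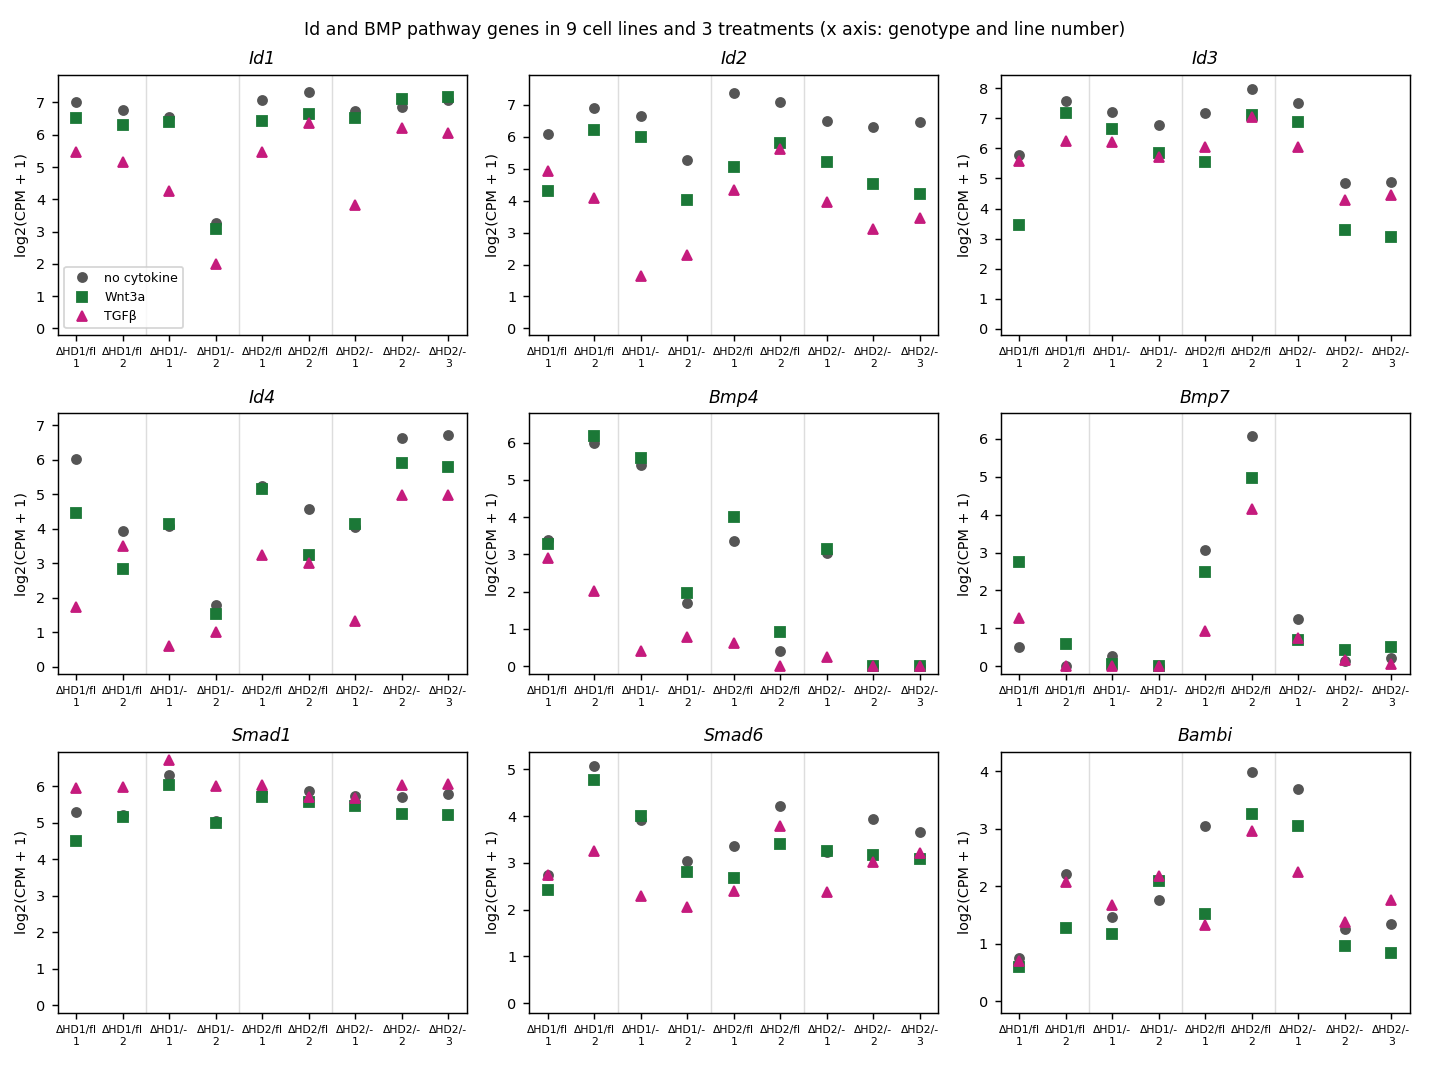
Level of each of the 9 genes as log2(CPM + 1) (y axis, a log scale) in each of the 9 cell lines (x axis, genotype and line number). Grey circles are untreated, green squares Wnt3a and pink triangles TGFβ libraries, 1 library per point. The triangles of Id1, Id2, Id3 and Id4 lie under the circles in all 9 lines, whereas the circles of Bmp4 and Bmp7 differ widely between lines.

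Id2 had the lowest adjusted p of the 9 genes in the mean TGFβ response. Without cytokine it stood at 67.6 and 118 CPM in ΔHD1/fl lines 1 and 2, at 98.8 and 37.2 CPM in ΔHD1/- lines, at 165 and 134 CPM in ΔHD2/fl lines, and at 88.8, 78.3 and 86.7 CPM in ΔHD2/- lines. With TGFβ the same lines gave 29.4 and 15.8, 2.14 and 3.96, 19.2 and 47.9, and 14.4, 7.58 and 10.1 CPM. Every line fell to between 2.17% and 43.5% of its untreated level (median 11.6%). The lowest untreated value (ΔHD1/- line 2) was under the highest TGFβ value (ΔHD2/fl line 2), so the treatments overlapped across lines but never within a line. The mean response was -2.78 ± 0.32 (log2 fold change ± SE, limma adjusted p = 4.7e-05).

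Id1, a partner of E proteins like Id2, fell to between 12.6% and 63.0% of its untreated level. Untreated levels were 129 and 107 CPM in ΔHD1/fl, 93.3 and 8.67 CPM in ΔHD1/-, 135 and 160 CPM in ΔHD2/fl and 105, 116 and 134 CPM in ΔHD2/- lines. With TGFβ they were 42.7 and 35.0, 18.1 and 2.95, 42.7 and 80.7, and 13.2, 72.8 and 65.6 CPM. ΔHD1/- line 2 stood apart from the other 8 lines in both conditions, and in those 8 lines the TGFβ values did not overlap the untreated ones. The mean response was -1.55 ± 0.49 (limma adjusted p = 0.0382) and adjusted p was 8.1e-05 with cell line as a block. The call without the block was near its limit, and the adjusted p was 0.0556 in edgeR and 0.0547 without the filter on low values. It was also lost, at adjusted p of 0.0671 to 0.146, when any single line of ΔHD1/fl, ΔHD2/fl or ΔHD2/- was left out, and without both Cdh1-low lines the adjusted p was 0.0104. Over the 18 alternative fits the fold change stayed between -1.68 and -1.38.

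Id4 fell by 2.07 ± 0.62 (limma adjusted p = 0.0304, and 0.00152 with the block). Its untreated levels of 64.3 and 14.3 CPM in ΔHD1/fl, 16.0 and 2.43 CPM in ΔHD1/-, 36.5 and 22.7 CPM in ΔHD2/fl and 15.7, 97.9 and 105 CPM in ΔHD2/- lines went to 2.35 and 10.4, 0.516 and 1.01, 8.47 and 7.07, and 1.51, 30.4 and 30.9 CPM. The fall was uneven, with ΔHD1/- line 1 keeping 3.24% of its untreated level and ΔHD1/fl line 2 keeping 72.6%. Levels overlapped widely between untreated and treated lines, since ΔHD2/- lines 2 and 3 stayed above 5 of the other untreated lines when treated. The call was lost, at adjusted p of 0.0564 to 0.154, without line 1 of ΔHD1/fl or ΔHD1/-, without either ΔHD2/fl line, or without ΔHD2/- line 2 or 3. Without both Cdh1-low lines the fold change was -2.90 (adjusted p = 0.0204).

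Id3 was lower in every line but was not called, at -0.92 ± 0.60 (limma adjusted p = 0.317). With the block, the adjusted p was 0.0156, and the fold change stayed under the limit of 1. It went from 54.4 and 191, 148 and 109, 144 and 249, and 183, 27.7 and 28.5 CPM to 46.3 and 74.2, 73.8 and 51.3, 65.6 and 131, and 65.0, 18.5 and 20.8 CPM, in the order of lines used above. The lines kept 35.5% to 85.2% of the untreated level, a smaller change than for Id2 in each line.

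Among the ligands, Bmp4 was lower with TGFβ in each of the 7 lines that held it. Untreated, it stood at 9.51 and 62.7 CPM in ΔHD1/fl, 41.1 and 2.26 CPM in ΔHD1/-, 9.31 and 0.333 CPM in ΔHD2/fl and 7.16, 0 and 0 CPM in ΔHD2/- lines. With TGFβ these were 6.43 and 3.05, 0.318 and 0.720, 0.529 and 0, and 0.189, 0 and 0 CPM. In ΔHD1/- line 1 the TGFβ library held 8 reads, and in ΔHD2/fl line 2 none. The mean response was -1.93 ± 0.77 (limma adjusted p = 0.093), and in limma it was called only with the block (adjusted p = 0.0106). In edgeR on recovered reads the fold change was -4.21 (adjusted p = 0.0703), and -3.57 (adjusted p = 0.0104) with the block, and with a pseudocount of 0.1 it was -2.77. Relative to the untreated level, the 7 lines kept a median of 4.87%, against a median of 11.6% over 9 lines for Id2. ΔHD2/- lines 2 and 3 were at 0 reads in every treatment, which allows up to 0.135 CPM, so no fold change can be given for them.

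Bmp7 was read mainly in the ΔHD2/fl lines. TGFβ took it from 7.33 to 0.907 CPM in line 1 and from 66.0 to 16.7 CPM in line 2, while in the other 7 lines it was at most 1.43 CPM with either no cytokine or TGFβ. In ΔHD2/fl lines it was called lower with the block (-2.02 ± 0.32, limma adjusted p = 0.0034) and not without it (adjusted p = 0.603). Across genotypes the mean response was -0.49 ± 0.48 (limma adjusted p = 0.521), which rests on these lines.

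Smad1, the signal transducer, was the one gene of the 9 to be higher with TGFβ in most lines (7 of 9). Its 9 untreated levels ran from 32.3 to 77.8 CPM (median 52.1 CPM) and its TGFβ levels from 50.4 to 103 CPM. In the ΔHD1 lines it went from 38.0 and 35.7 to 60.6 and 62.0 CPM (ΔHD1/fl) and from 77.8 and 32.3 to 103 and 62.6 CPM (ΔHD1/-). In the ΔHD2 lines it went from 56.5 and 57.3 to 63.8 and 51.3 CPM (ΔHD2/fl) and from 52.1, 50.98 and 53.8 to 50.4, 64.5 and 65.5 CPM (ΔHD2/-). The mean response was +0.40 ± 0.17 (limma adjusted p = 0.122, and 0.0043 with the block), below the limit on fold change.

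Of the inhibitors, Smad6 was lower in 8 of 9 lines and Bambi moved both ways. Smad6 went from 5.72 and 32.4, 14.2 and 7.18, 9.31 and 17.5, and 8.34, 14.3 and 11.7 CPM to 5.72 and 8.52, 3.93 and 3.13, 4.27 and 12.9, and 4.16, 7.06 and 8.30 CPM. In ΔHD1/fl line 1 alone the value was the same with and without TGFβ. The mean response was -0.91 ± 0.35 (limma adjusted p = 0.0861, and 0.00211 with the block). Without ΔHD1/fl line 1 it was called (-1.14, adjusted p = 0.016). Bambi (Entrez 68010, plus strand, chr18:3507923-3516404) was lower in 5 lines and higher in 4, at -0.37 ± 0.43 (limma adjusted p = 0.606). Its untreated levels of 0.686 and 3.62 CPM in ΔHD1/fl and 1.75 and 2.40 CPM in ΔHD1/- lines became 0.631 and 3.20, and 2.18 and 3.53 CPM. In ΔHD2/- lines it went from 11.9, 1.40 and 1.55 to 3.75, 1.59 and 2.38 CPM. In ΔHD2/fl lines it went from 7.24 to 1.51 and from 14.9 to 6.82 CPM, which was called with the block (-1.37 ± 0.39, limma adjusted p = 0.041) and not without it (adjusted p = 0.722).

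**Figure D2:**
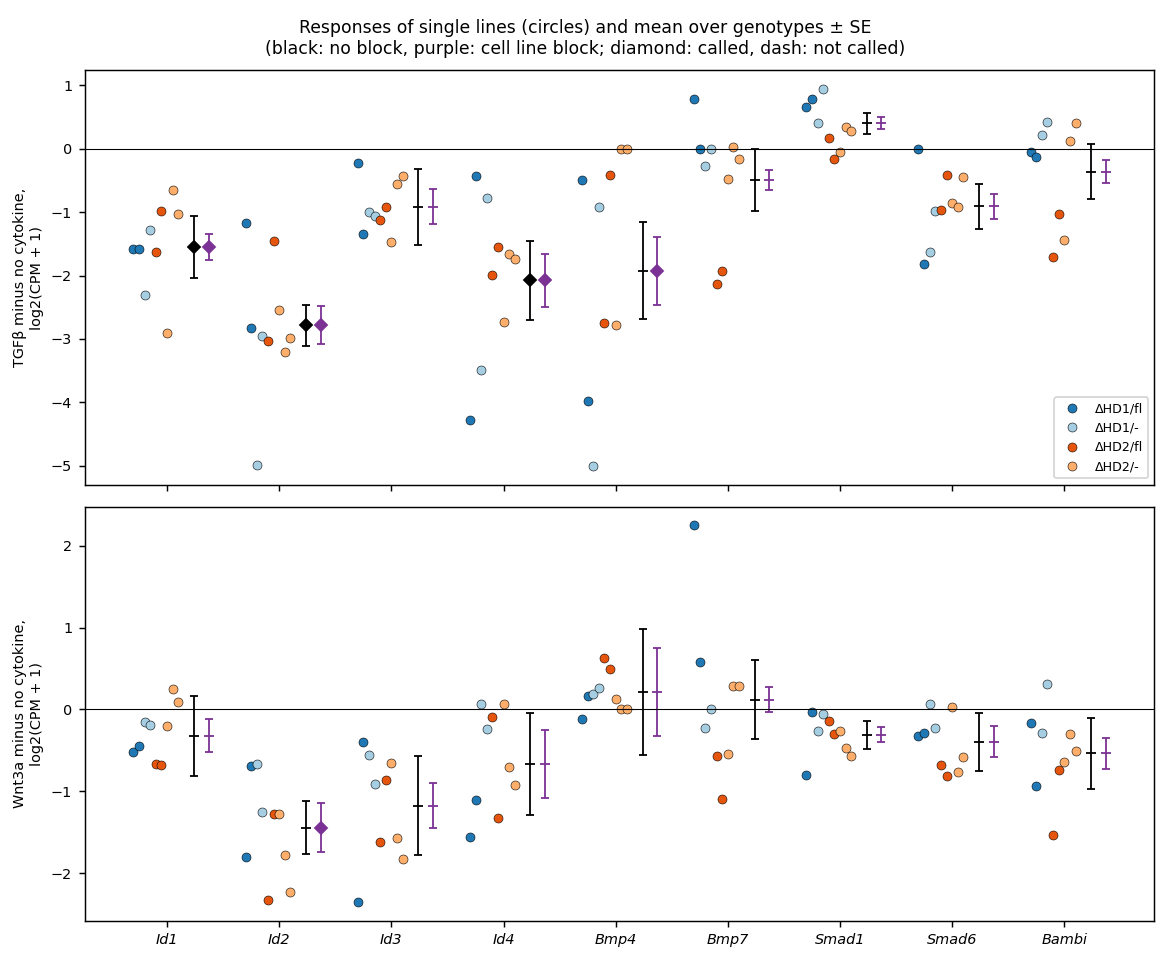
Difference in log2(CPM + 1) between TGFβ (upper panel) or Wnt3a (lower panel) and untreated cells, 1 circle per cell line coloured by genotype. Marks to the right give the mean over the 4 genotypes with its SE, in black without and in purple with the cell line block, as a diamond where called. All circles of Id1 to Id4 lie below 0 with TGFβ, and with Wnt3a those of Id2, Id3 and Smad1 do.

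Within single genotypes, Id2 was the gene called most often. Its mean TGFβ responses were -2.00 and -3.97 for the ΔHD1/fl and ΔHD1/- genotypes and -2.25 and -2.91 for ΔHD2/fl and ΔHD2/-. That of Id1 was -1.58, -1.80, -1.31 and -1.53, and that of Id4 -2.36, -2.13, -1.77 and -2.04, in the same order. The main test called Id2 lower with TGFβ in ΔHD1/- (-3.97 ± 0.68, limma adjusted p = 0.00727) and in ΔHD2/- lines (-2.91 ± 0.55, adjusted p = 0.0163), as 1 of 9 genes beside 1.43% and 0.806% of all genes. In ΔHD1/fl (0.211% of all genes called) and ΔHD2/fl lines (0.286%) limma called 0 of the 9, 1 gene (Id2) having an unadjusted p under 0.05 in each, and edgeR on recovered reads also called 0. With the block, limma called 1 gene in ΔHD1/fl (Id1, beside 5.42% of all genes) and 3 in ΔHD1/- (Id1, Id2 and Smad6, beside 9.33%). It called 3 in ΔHD2/fl (Id2, Bmp7 and Bambi, beside 5.24%) and 2 in ΔHD2/- lines (Id1 and Id2, beside 6.03%). edgeR with the block called 1, 2, 0 and 2 of the 9 in these genotypes, beside 5.84%, 9.41%, 4.49% and 8.44% of all genes. So all 3 calls in ΔHD2/fl lines were lost there. Without ΔHD1/- line 1, or without ΔHD2/- line 2 or line 3, the main test called 0 of the 9 in the genotype concerned.

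Id2 was lower in every line with Wnt3a too, and passed the test when each line was compared with itself. The untreated libraries are the same as in the TGFβ comparison, so the values of both are set side by side and not tested for likeness. With Wnt3a, Id2 went from the untreated levels given above to 18.7 and 72.7 CPM in ΔHD1/fl, 62.2 and 15.1 CPM in ΔHD1/-, 32.0 and 54.6 CPM in ΔHD2/fl and 36.1, 22.1 and 17.6 CPM in ΔHD2/- lines. Each line kept 19.4% to 62.9% of its untreated level. The mean response was -1.44 ± 0.32 (limma adjusted p = 0.265), and the block gave an adjusted p of 0.049. So the main test called 0 of the 9 genes in the mean Wnt3a response, with 1 (Id2) at an unadjusted p under 0.05, where it called 0.0226% of all genes. With the block 1 of 9 was called, beside 0.241% of all genes (0.128% lower), and edgeR called 0 with or without it. Without both Cdh1-low lines, Id2 was called in the main test as well (-1.51, limma adjusted p = 0.0198, beside 0.593% of all genes), as it was without ΔHD1/fl line 2 alone (-1.58, adjusted p = 0.0331, beside 0.615%).

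Id2, Id3 and Smad1 were lower with Wnt3a in 9 of 9 lines, as were 3.22% of all genes tested. Id3 went to 9.86 and 144, 99.9 and 57.2, 46.3 and 136, and 116, 8.67 and 7.30 CPM. Its response was -1.18 ± 0.60 (limma adjusted p = 1.0, and 0.0712 with the block), and ΔHD1/fl line 1 kept the least, 18.1%. In that line and in ΔHD2/fl line 1 and ΔHD2/- lines 2 and 3, the Wnt3a value of Id3 lay under the TGFβ value. Smad1 stood at 21.4 and 34.8 CPM in ΔHD1/fl, 64.7 and 31.0 CPM in ΔHD1/-, 51.3 and 46.6 CPM in ΔHD2/fl and 43.3, 36.6 and 35.9 CPM in ΔHD2/- lines. This is 56.5% to 97.4% of the untreated level, a response of -0.31 ± 0.17 (limma adjusted p = 1.0, and 0.158 with the block).

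Id1 stood at 89.9 and 78.04 CPM with Wnt3a in ΔHD1/fl, 83.6 and 7.45 CPM in ΔHD1/-, 84.8 and 99.7 CPM in ΔHD2/fl and 91.4, 138 and 143 CPM in ΔHD2/- lines, lower than untreated in 7 lines and higher in 2. The response was -0.32 ± 0.49 (limma adjusted p = 1.0). Id4 kept 32.9% to 105% of its untreated level and changed by -0.66 ± 0.62 (adjusted p = 1.0). Bmp4 was higher in 6 of the 7 lines that held it. It went to 8.69 and 70.7, 47.1 and 2.92, and 14.9 and 0.873 CPM in ΔHD1/fl, ΔHD1/- and ΔHD2/fl lines and to 7.90 CPM in ΔHD2/- line 1, at +0.21 ± 0.77 (adjusted p = 1.0). Bmp7 went from 0.412 to 5.71 CPM in ΔHD1/fl line 1 and from 66.0 to 30.3 CPM in ΔHD2/fl line 2. Smad6, at 4.37 to 26.3 CPM, was lower than untreated in 7 lines and Bambi, at 0.507 to 8.53 CPM, in 8, at -0.39 ± 0.35 and -0.54 ± 0.43 (limma adjusted p = 1.0 for both).

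By genotype, the main test called 0 of the 9 genes with Wnt3a in ΔHD1/fl (0.0151% of all genes called), ΔHD1/- (0.00754%), ΔHD2/fl (0.113%) and ΔHD2/- lines (0.00754%). At an unadjusted p under 0.05 there were 0, 0, 1 and 1 genes, Id2 in both cases. With the block limma also called 0 in each, beside 0.00754%, 0.00754%, 0.324% and 0.00754% of all genes, with 2, 0, 3 and 3 genes at an unadjusted p under 0.05. edgeR called 0 in each genotype.

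Next, the levels without cytokine were compared between lines, since the genotypes differ in whether a functional allele of Bcl9 and Bcl9L remained. Untreated levels per kilobase of exon, which allow genes to be set side by side, had a median over lines of 99.6 CPM per kilobase for Id1, 80.7 for Id3, 36.4 for Id2, 8.33 for Smad1, 5.91 for Id4, 3.64 for Smad6, 3.19 for Bmp4, 0.474 for Bambi and 0.0532 for Bmp7. Ranges over lines overlapped between Id1, Id3 and Id2 (7.47 to 138, 15.5 to 139 and 15.3 to 67.6 CPM per kilobase), so their order does not exceed the spread. Id1, Id2, Id4 and Smad1 were lowest in ΔHD1/- line 2. Id3 was lowest in ΔHD2/- lines 2 and 3, the same lines in which Id4 was highest and Bmp4 was at 0 reads. From the lowest to the highest line, Smad1 varied 2.41-fold, Id2 4.43-fold, Smad6 5.67-fold, Id3 8.97-fold, Id1 18.5-fold, Bambi 21.7-fold and Id4 43.3-fold.

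These differences did not follow the genotype beyond the spread between lines. ΔHD1/- lines were set against ΔHD1/fl lines without cytokine, and limma called 0 of the 9 genes, none at an unadjusted p under 0.05, beside 0.0678% of all genes. Id1 was at 50.96 ± 59.8 CPM in ΔHD1/- and 118 ± 15.7 CPM in ΔHD1/fl lines (SD, n = 2), a log2 difference of -1.97 ± 1.03 (limma adjusted p = 1.0) that rests on ΔHD1/- line 2. For ΔHD2/- against ΔHD2/fl lines limma again called 0 of the 9, beside 0.55% of all genes. The 1 gene at an unadjusted p under 0.05 was Bmp7. It was at 7.33 and 66.0 CPM in ΔHD2/fl lines and at 1.35, 0.0901 and 0.167 CPM in ΔHD2/- lines, so that the groups did not overlap, with a log2 difference of -4.03 ± 0.92 (limma adjusted p = 0.0648). Bmp7 was called when ΔHD2/fl line 1 or ΔHD2/- line 1 was left out, but without ΔHD2/fl line 1 this group is 1 line, which is assumed to vary like the other groups. edgeR called 0 of the 9 in both comparisons. The limma fit took its spread from all 27 libraries as if they were independent, although they came from 9 lines. Libraries of a line deviated together (r across genes 0.509 to 0.94). The p-values of both comparisons without cytokine, and those behind the calls of Bmp7, may therefore be too low.

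Whether the recombined lines responded differently was tested as the difference of both responses. limma called 0 of the 9 genes for TGFβ in ΔHD1 lines (0.00754% of all genes) and in ΔHD2 lines (0.0301%), and for Wnt3a in ΔHD1 lines (0.0% of all genes, with 15 genes at an unadjusted p under 0.05) and in ΔHD2 lines (0.0151%). None of the 9 had an unadjusted p under 0.05 in these 4 tests. With the block it called 0 of the 9 too, beside 0.0226%, 0.098%, 0.0% and 0.121% of all genes, with 1 gene at an unadjusted p under 0.05 for TGFβ in ΔHD1 lines (Id2), 1 in ΔHD2 lines (Bmp7), and 1 for Wnt3a in ΔHD1 lines (Bmp7). The largest such difference for TGFβ in ΔHD1 lines was that of Id2, whose fall differed between recombined and fl lines by -1.96 ± 0.96 on the log2 scale (limma adjusted p = 1.0, and 0.602 with the block). SEs of these differences ranged from 0.46 to 2.26 without the block.

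**Figure D3:**
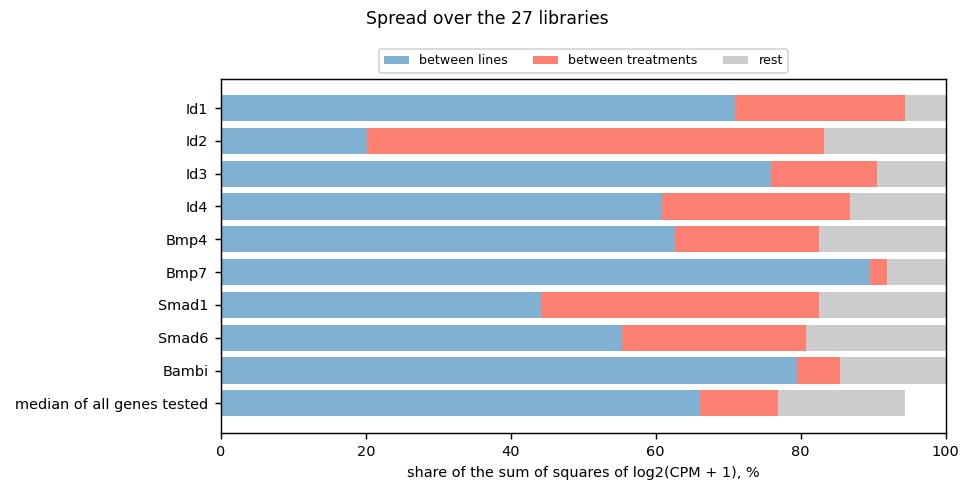
Share of the total sum of squares of log2(CPM + 1) over 27 libraries (x axis, %) that lay between the 9 lines, between the 3 treatments, and in neither, for each of the 9 genes (y axis). The last bar gives the median of each share over all genes tested, which need not add up to 100%. Id2 is the gene of the 9 with the longest treatment segment (63.0%).

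The balance between lines and treatments set Id2 apart in description. Of its sum of squares over the 27 libraries, 63.0% lay between treatments and 20.2% between lines. For Smad1 these shares were 38.3% and 44.2%, for Id4 26.0% and 60.8%, for Smad6 25.4% and 55.4%, for Id1 23.4% and 71.0%, for Bmp4 19.9% and 62.6%, and for Id3 14.5% and 75.9%. Bmp7 and Bambi lay at the other end, with 89.6% and 79.6% between lines and 2.31% and 5.86% between treatments. The median gene tested had 10.7% between treatments and 66.1% between lines.

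After centring each line on its own mean, Id1 was compared with all other 13269 genes tested over 27 libraries, as a description without a test. The libraries share lines and the same shift with TGFβ. The 5 genes most like Id1 were Mtarc2 (Pearson r = 0.961), Acad8 (0.960), Lrch1 (0.958), Mpst (0.958) and Dele1 (0.956). Mpst, a sulfurtransferase, had a median of 42.4 CPM untreated, 46.4 CPM with Wnt3a and 21.8 CPM with TGFβ, and Mtarc2, a mitochondrial amidoxime reductase, had 67.5, 71.5 and 29.8 CPM. Among the 9 genes, Id4 (r = 0.860, rank 628 of all genes), Id2 (0.811, rank 1214), Bmp4 (0.807, rank 1259) and Smad6 (0.778, rank 1641) were closest to Id1, so many genes outside the group were closer. Id3 was at 0.404, Bambi at 0.303, Bmp7 at 0.341 and Smad1 at -0.569. The closest pair of all was Id2 and Smad6, at 0.910.

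The wider BMP pathway did not move in one direction with TGFβ. Counts in the following lists stand beside 5.42% of all genes called in the main test and 8.92% with the block. Ligands were represented by 5 genes tested of 13 listed, of which 0 were called in the main test (unadjusted p under 0.05 for Bmp4 alone) and 1, Bmp4, was called lower with the block (median log2 fold change -0.64). Of 10 receptors and coreceptors tested among 11, Acvrl1 was called higher and Rgma lower in both tests (median 0.12). Acvrl1, the type I receptor best known from endothelium, was at 0 to 0.345 CPM untreated and 0.111 to 7.74 CPM with TGFβ, higher in 9 of 9 lines. The endothelial marker Cdh5 was higher in 9 of 9 lines as well, from 0 to 0.407 CPM untreated to 0.340 to 6.32 CPM, and its part in this result was not tested. Both genes passed the filter only through TGFβ libraries and so had to differ, and their calls are no support for a change. Rgma, a BMP coreceptor, fell in 9 of 9 lines, from 23.5 to 118 CPM untreated to 5.41 to 56.3 CPM, at -1.64 ± 0.43 (adjusted p = 0.0149). Acvr1, a BMP type I receptor, was higher in 9 of 9 lines at +0.92 ± 0.23 (adjusted p = 0.0125), short of the fold limit.

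The secreted antagonists and the Smads divided as well. Of 10 antagonists tested among 13, Chrd (chordin) was called lower in the main test, at -1.10 ± 0.32 (limma adjusted p = 0.0247), and with the block Fst and Sostdc1 were called lower and Fstl3 higher too (median 0.04). Sostdc1 was read above 1 CPM untreated in the ΔHD2/fl lines alone, where it went from 21.9 and 109 CPM to 0 and 4.33 CPM. Of the 8 Smads and Smurfs, Smad7, which inhibits both BMP and TGFβ receptors, was called higher, from 26.9 to 119 CPM untreated to 112 to 319 CPM with TGFβ (+1.71 ± 0.22, limma adjusted p = 9.3e-05, higher in 9 of 9 lines). Its change was thus opposite in sign to that of Smad6, and the other Smads and Smurfs were not called (median of the list 0.25).

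Of 11 BMP target genes, all tested, 3 were called lower (Id1, Id2 and Hey1) and 2 higher (Smad7 and Msx2), with a median of -0.91. Hey1, a target of Notch as well, changed by -2.29 ± 0.56 (limma adjusted p = 0.0103), lower in 7 lines and slightly higher in ΔHD2/- lines 2 and 3. Msx2, a homeobox gene, rose by 1.31 ± 0.39 (adjusted p = 0.0306) in the mean over the 4 genotypes. It was higher by 1.25 to 2.71 in each ΔHD1 and ΔHD2/fl line and at 0 reads with TGFβ in all ΔHD2/- lines. Atoh8 was lower in 9 of 9 lines and was called with the block only (-1.84 ± 0.28, limma adjusted p = 0.000238). Of the 3 E proteins tested (Tcf3, Tcf4 and Tcf12), the partners of Id proteins, 0 were called in either test, none had an unadjusted p under 0.05 without the block, and their median was 0.06.

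**Figure D4:**
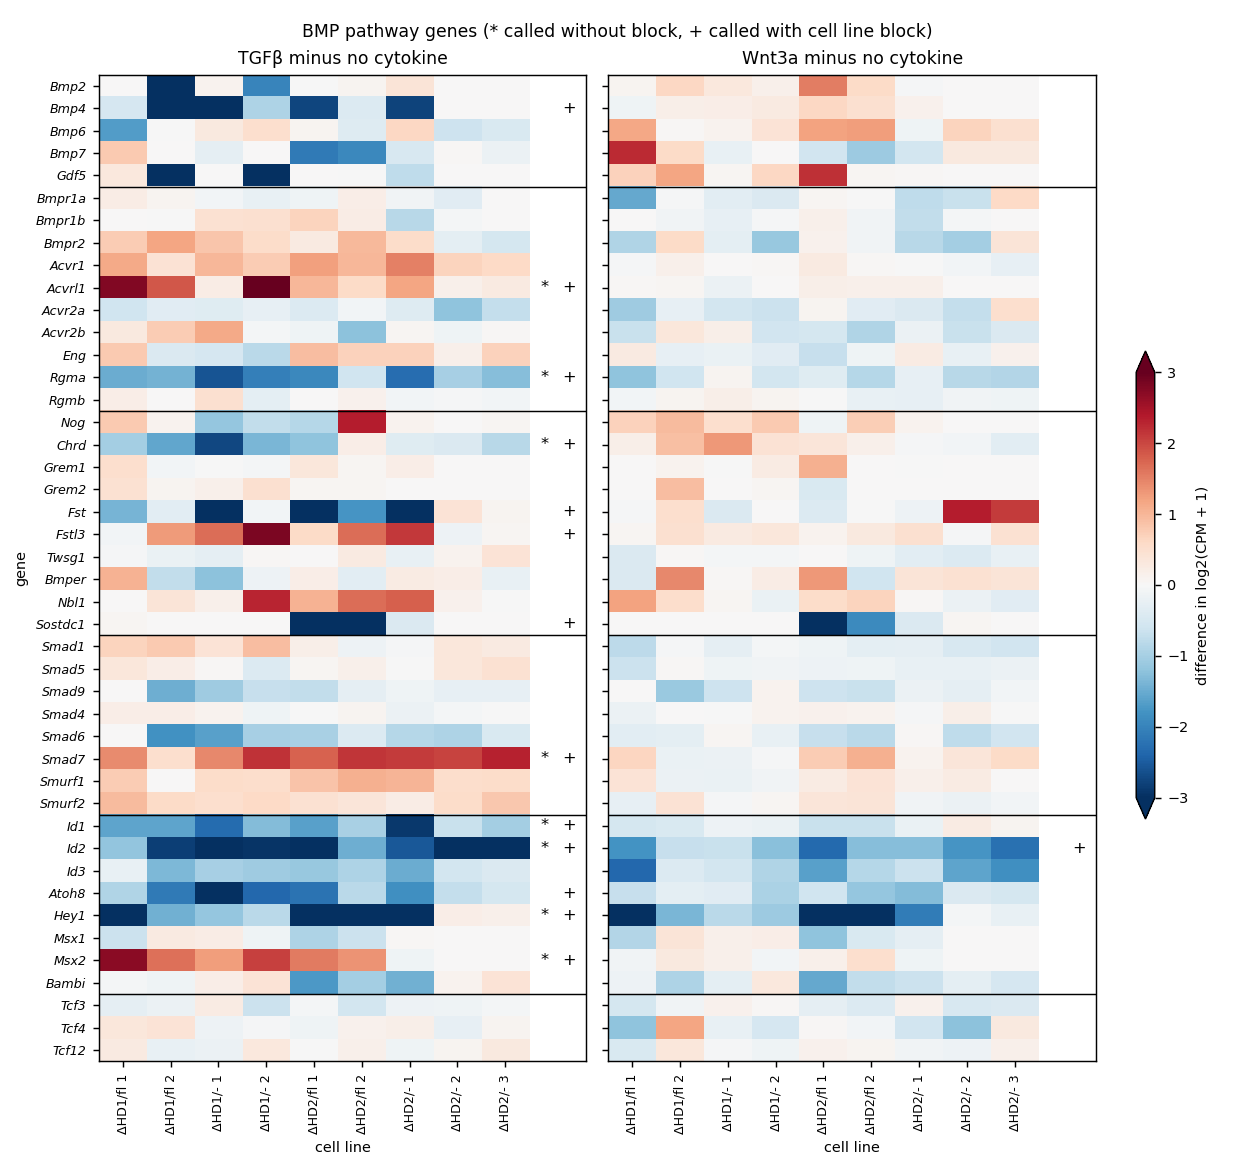
Difference in log2(CPM + 1) to untreated cells in each of the 9 cell lines (columns) for the genes tested of the BMP pathway lists (rows), with TGFβ on the left and Wnt3a on the right. Red is higher, blue lower, and the colour scale ends at 3 in either direction. Horizontal lines part ligands, receptors, antagonists, Smads, target genes and E proteins, an asterisk marks genes called without and a plus sign those called with the cell line block, and Smad7 and Id2 have opposite colours in all 9 lines with TGFβ.

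With Wnt3a, limma called 0 genes of these lists in the main test, beside 0.0226% of all genes. There were 2 (Id2 and Hey1) at an unadjusted p under 0.05. With the block Id2 alone was called, beside 0.241% of all genes. The medians were 0.41 for ligands, -0.25 for receptors, 0.29 for antagonists, -0.08 for Smads and Smurfs, -0.41 for target genes and -0.21 for E proteins, beside -0.06 over all genes. Hey1 and Atoh8 were lower in 9 of 9 lines, at -1.92 ± 0.42 (limma adjusted p = 0.0568 with the block) and -0.69 ± 0.28 (adjusted p = 0.249 with the block).

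Markers of other cell types moved with the treatments to some degree. Of 4 basal markers (Krt5, Krt14, Trp63 and Acta2), Trp63 and Krt14 were lower with TGFβ in 9 of 9 lines, and Trp63 was called (-2.73 ± 0.91, limma adjusted p = 0.0472). Krt5 was lower in 8 lines, while Acta2 was higher in 7, up to 1437 CPM in ΔHD1/- line 2 (+2.01 ± 0.84, adjusted p = 0.108, and 0.0321 with the block). The summed basal markers had a range of 303 to 15662 CPM untreated and 86.5 to 2955 CPM with TGFβ. The summed luminal markers ranged from 1.31 to 4668 CPM untreated and from 5.68 to 6387 CPM with TGFβ. Within this sum Krt8 and Krt18 were each higher with TGFβ in 7 lines, while Cdh1 was lower in 8 (-1.53 ± 1.60, adjusted p = 0.552, and 0.0481 with the block). In ΔHD1/- line 1, where Id2, Id4 and Bmp4 kept 2.17%, 3.24% and 0.772% of their untreated levels, Cdh1 went from 817 to 4.29 CPM and Epcam from 263 to 12.5 CPM, while Krt8 went from 1106 to 1370 and Krt18 from 637 to 1079 CPM. The 5 mesenchymal markers summed to 3.42 to 7383 CPM untreated and 4.44 to 7537 CPM with TGFβ. Within lines this sum was higher with TGFβ in 8 of 9, for example from 230 to 1546 CPM in ΔHD1/fl line 1, and Col1a1 was higher in 8 lines. With Wnt3a, Trp63 was lower in 9 of 9 lines (median 49.8% of untreated, -0.92 ± 0.91, limma adjusted p = 1.0, and 0.309 with the block) and Vim in 7. Of the 3 endothelial markers, Kdr was higher with TGFβ in 7 lines and Pecam1 lower in 9, and they stayed at or under 6.47 CPM and the 3 leukocyte markers at or under 24.5 CPM in sum. Per library, 0 or 1 of the 4 luminal markers was at 0 reads. The part of these markers in the changes of Id and BMP genes was not tested, and in bulk RNA fewer cells of a type cannot be told apart from less RNA per cell.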

How the data were processed

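Members and gene lists were chosen with earlier results of these data known. Per the labels, mRNA libraries kept strand information. The submitters' notes and the study's methods name STAR, mm10 and counting over exons of RefSeq genes. The deposited table holds CPM made by the authors, reads per 1000000 reads in genes. Of 24454 Entrez identifiers, 24374 matched a symbol. All nonzero values (100%) were whole reads within 0.01 reads (or 0.01 per 1000 reads), so reads were recovered, with 21864011 to 33692360 per library. A count of 0 allows 3 reads, 0.089 to 0.137 CPM; such floors cover counting error only. P-values without the block measure the spread between cell lines. They count libraries of the same line as independent, so p-values for differences between genotypes without cytokine may be too low. With the block they measure how far responses differ between lines of a genotype.

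Genes had to reach 1 CPM in 2 or more libraries (13270 did). log2(CPM + 1) was fitted by limma 3.58.1 under R 4.3.3 (eBayes, trend and robust), with 12 group means and Benjamini-Hochberg adjustment over all genes. For mean responses every genotype weighs equally. Every member was named, list genes where called in a mean response, and preset check genes; Acvr1, Atoh8, Fst, Fstl3, Sostdc1 and Krt14 were named after their values were seen. Replicate numbers pair libraries because each number within a genotype is 1 cell line, and libraries of a line deviated together from the group means (r across genes 0.509 to 0.94), so cell line was also fitted as a block. As alternatives, edgeR 4.0.16 was run on the recovered reads with and without the block, libraries were scaled by median of ratios, the filter was dropped, the pseudocount was set to 0.1, the fit was restricted to the groups compared, thresholds were changed, each line was left out, and ΔHD2/- lines 2 and 3 were averaged. Leaving out both Cdh1-low lines was added after seeing the data. In edgeR, 855 genes were called for the mean TGFβ response. The fits were tested on simulated counts. One preset check gene is not reported here.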

Additional observations from a re-analysis of the deposited data

Results flagged for a closer look

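Groups held 2 or 3 lines, too few to look for single outlying lines. Of the 9 genes, Bambi with TGFβ in the ΔHD1 lines was the one whose recombined and fl lines moved in opposite directions in every line. Both ΔHD1/- lines were higher, by 0.21 and 0.41 on the log2(CPM + 1) scale, and both ΔHD1/fl lines lower, by 0.05 and 0.14. The difference of the responses was 0.40 ± 1.27 (limma adjusted p = 1.0, and 0.873 with cell line as a block), so it did not exceed the spread between lines. Levels were low, from 0.631 to 3.62 CPM in these libraries.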

How the results depend on the processing

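Counts below are of the 9 genes called. For the mean TGFβ response (3 in the main test), an unadjusted p with a 1.5-fold limit gave 5 (beside 16.3% of all genes), averaging ΔHD2/- lines 2 and 3 gave 1, and leaving out 1 line at a time gave 1 to 3 (beside 3.46% to 7.09% of all genes). It was 1, Id2, without either ΔHD2/fl line and without ΔHD2/- line 2 or 3, and 2, Id2 and Smad6, without ΔHD1/fl line 1. Where leaving out a line left a genotype with 1, that line was assumed to vary like the other groups. edgeR, median-of-ratios scaling and no filter gave 2 each, Id1 losing its call. With the replicate block, TGFβ counts by genotype were 1 in ΔHD1/fl (main 0), 3 in ΔHD1/- (main 1), 3 in ΔHD2/fl (main 0) and 2 in ΔHD2/- lines (main 1). The shares of all genes called were 5.42%, 9.33%, 5.24% and 6.03%. In edgeR with the replicate block the counts were 1, 2, 0 and 2, beside 5.84%, 9.41%, 4.49% and 8.44% of all genes. In the same 4 genotypes, an unadjusted p with a 1.5-fold limit gave 1 each, beside 8.35%, 12.1%, 7.75% and 8.85% of all genes. Restricting the fit to the groups compared gave 0 in ΔHD1/- lines, averaging ΔHD2/- lines 2 and 3 gave 0 in ΔHD2/- lines, and dropping both Cdh1-low lines, an alternative chosen after seeing the data, gave 1 in ΔHD2/fl lines. Leaving out 1 line at a time gave 0 to 1 in ΔHD1/- (0 without its line 1) and 0 to 1 in ΔHD2/- lines (0 without its line 2 or 3).

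For the mean Wnt3a response (main 0), the block gave 1, beside 0.241% of all genes. An unadjusted p with a 1.5-fold limit gave 1, beside 2.29%, and the gene was Id2 in both cases. Over the 18 alternative fits the fold change of Id2 stayed between -1.58 and -1.29. Its calls without Cdh1-low lines, given above, came from fits that left 1 line in a genotype. An unadjusted p with a 1.5-fold limit also gave 1 for Wnt3a in ΔHD2/fl (beside 1.24% of all genes) and in ΔHD2/- lines (beside 0.791%). Without cytokine, Bmp7 was called for ΔHD2/- against ΔHD2/fl lines when ΔHD2/- line 1 was left out (main 0, beside 0.55% of all genes). That fit also counted libraries of the same line as independent, so its p-value may be too low. Calls in fits that left 1 line in a group, of Id1 in ΔHD1 lines and Bmp7 in ΔHD2 lines, are not counted here. The Wnt3a response of Bmp7 (0.12) turned to -0.088 without ΔHD1/fl line 1, and leaving out other lines took it up to 0.33. The causes of these changes were not tested, apart from the smaller number of lines.

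Of 360 alternative values for mean responses of single genes, 332 kept their direction and side of the threshold, 18 lost and 9 gained the call, and 1 reversed. With 2 or 3 lines a genotype, effects within a genotype and differences between genotypes were estimated with SEs of up to 2.26 on the log2 scale. Genes at or near the floor of 3 reads, such as Bmp7 in ΔHD1/- line 2 and Bmp4 in ΔHD2/- lines 2 and 3 (0 reads in all treatments), allow no fold change.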
